A study of Mus musculus with 6 samples.

Results

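The muscle sarcomere scaffold genes are 10 genes that build the filaments and cross-links of striated muscle: Acta1, Neb, Actn2, Actn3, Tcap, Ttn, Myom1, Myom2, Mybpc1 and Mybpc2. They were taken as a set by symbol, and all 10 were found among the 48440 genes of the count table. RNA was sequenced from murine subcutaneous tissue surrounding cartilage engineered from rabbit bone marrow mesenchymal stem cells. This cartilage was implanted in BALB/c nude mice for 12 weeks. The cartilage had been wrapped in an electrospun PCL/collagen membrane. The membranes of the 0%-Axitinib group (3 samples) held no drug, and those of the 3%-Axitinib group (3 samples) were spun with axitinib, an inhibitor of VEGF receptors, added at 3% of the mass of PCL and collagen. The labels call the first group untreated and do not name the mouse of a sample. Each mouse received a pair of constructs of its group, so 2 samples of a group may share a mouse. The labels give no muscle dissection and name the tissue only as subcutaneous. The paper's methods describe samples taken with entangled murine tissue, so RNA of the rabbit cartilage may be present. Reads were mapped to the mouse genome, and whether rabbit reads entered the counts was not tested.

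In skeletal muscle, sarcomeres are repeated units in which thin actin filaments, anchored at the Z-disc, slide past thick myosin filaments, which are held in register at the M-band. Titin spans the distance from Z-disc to M-band, and nebulin runs along the thin filament. Mice also have a thin skeletal muscle sheet, the panniculus carnosus, beneath the skin of the trunk.

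The reads counted on genes were 17761968, 16716411 and 18005908 in 0%-Axitinib replicates 1, 2 and 3, and 9225518, 11686084 and 18403795 in 3%-Axitinib replicates 1, 2 and 3. Expression is given as counts scaled to library size after TMM normalization (CPM). A count of 3, used as the limit of detection, corresponded to between 0.157 and 0.330 CPM and covers counting error only.

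The 10 genes together had 70.8, 7.46 and 18.7 CPM in 0%-Axitinib replicates 1, 2 and 3. In 3%-Axitinib replicates 1, 2 and 3, their sum was 6751, 14.4 and 3397 CPM. Replicates 1 and 3 of the 3%-Axitinib group were therefore far above every other sample, and replicate 2 of that group lay among the 0%-Axitinib samples. As a share of the reads counted on genes, the set took 0.665% in 3%-Axitinib replicate 1 and 0.319% in replicate 3, against 0.00135% in replicate 2. In the 0%-Axitinib group this share was 0.00764%, 0.000766% and 0.00191%. In bulk tissue, more muscle cells in a sample and more of these transcripts per muscle cell cannot be told apart. In 3%-Axitinib replicate 2, 0 of the 10 genes exceeded its highest 0%-Axitinib sample, and in replicates 1 and 3 all 10 did. For 9 of the 10 genes the highest 0%-Axitinib sample was replicate 1, and for Myom1 it was replicate 3.

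**Figure D1:**
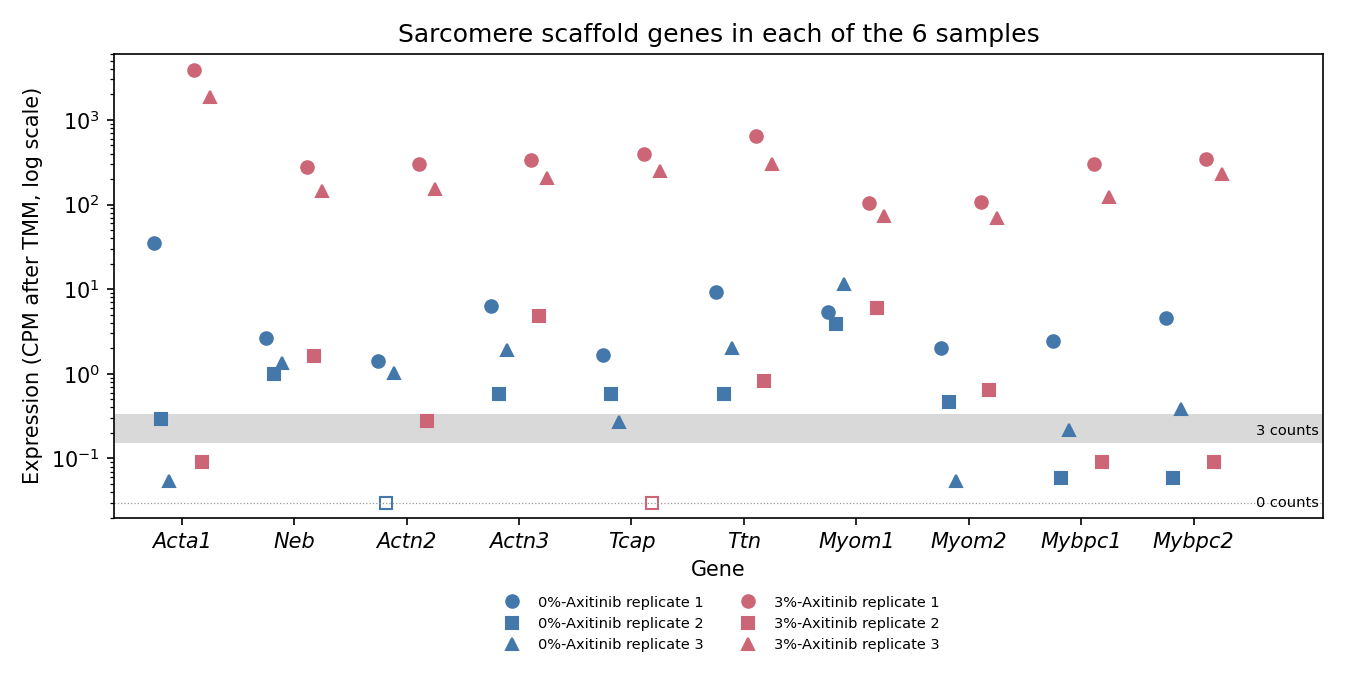
Expression of the 10 genes in CPM after TMM (log axis) in each sample, blue for the 0%-Axitinib group and red for the 3%-Axitinib group, with a marker shape for each replicate; the gray band is the range of a count of 3 over the samples, and open markers are counts of 0. Replicates 1 and 3 of the 3%-Axitinib group sit above all other samples for each gene, and replicate 2 of that group sits among the 0%-Axitinib samples or, for Tcap, at a count of 0.

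The fit covered the 15257 genes that passed the expression filter, all 10 genes of the set included. By the study's criterion (a fold change of at least 1.5 and a P-value of at most 0.05, taken here as unadjusted), 9 of the 10 genes were higher in the 3%-Axitinib group, against 9.54% of all tested genes. The gene that missed it was Acta1. In edgeR's quasi-likelihood test with Benjamini-Hochberg adjustment, 0 of the 10 genes passed an adjusted p of 0.05, against 0.00655% of all tested genes (1 gene), while 9 of the 10 had an unadjusted p of at most 0.05. The tools differed. Under the Wald test of DESeq2, 9 of the 10 genes passed an adjusted p of 0.05, against 10.9% of the genes it adjusted, and all 10 met the criterion as higher, against 6.5% of the genes it tested. With limma-voom, 0 of the 10 genes passed an adjusted p of 0.05 and 0 met the criterion as higher, which 9.62% of all tested genes did, and its log2 fold changes were smaller for each of the 10 genes. The groups overlapped for each of the 10 genes, whereas in 14.7% of all tested genes the lowest 3%-Axitinib sample exceeded the highest 0%-Axitinib sample. The median log2 fold change of the set was 6.61, and that of all tested genes was -0.034. With limma-voom the median of the set was 5.23.

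Acta1 encodes skeletal muscle alpha-actin, the main protein of the thin filament. It was at 35.1, 0.292 and 0.0543 CPM in 0%-Axitinib replicates 1, 2 and 3, the last 2 values from 5 reads and 1 read. In 3%-Axitinib replicates 1, 2 and 3 it was at 3924, 0.0911 and 1852 CPM. Replicate 2 thus held 1 read of Acta1, where replicates 1 and 3 held 35682 and 31979. By read count, Acta1 ranked at place 19 of all genes in 3%-Axitinib replicate 1 and at place 49 in replicate 3. The group means were 11.8 ± 20.2 CPM and 1925 ± 1963 CPM (SD, n = 3 each), so the SD was larger than the mean in both groups. The log2 fold change of 7.35, with a standard error of 3.19, had an adjusted p of 0.220 in edgeR's quasi-likelihood test (Benjamini-Hochberg adjustment). Its unadjusted p was 0.0548. The criterion was met without 0%-Axitinib replicate 1 (log2 fold change 13.39, unadjusted p = 0.0150 in edgeR's test), where the other 0%-Axitinib samples held 5 reads and 1 read, and without 3%-Axitinib replicate 2 (7.90, unadjusted p = 0.0191).

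Neb encodes nebulin, a giant protein that lies along the thin filament. Its levels were 2.66, 0.991 and 1.36 CPM in 0%-Axitinib replicates 1, 2 and 3, and 276, 1.64 and 145 CPM in 3%-Axitinib replicates 1, 2 and 3. All 6 samples had at least 17 reads of Neb, so its low samples were measured better than those of Acta1. The log2 fold change was 6.38 (standard error 1.58), and its adjusted p of 0.09995 in edgeR's quasi-likelihood test with Benjamini-Hochberg adjustment was the lowest of the set.

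Actn2 and Actn3 encode the alpha-actinins that cross-link thin filaments at the Z-disc, Actn3 being the form of fast fibers. Actn2 was at 0 in 0%-Axitinib replicate 2 (0 reads, with a limit of 0.175 CPM for a count of 3) and at 1.41 and 1.03 CPM in replicates 1 and 3. In the 3%-Axitinib group it had 2760, 3 and 2642 reads, so replicate 2 did not exceed the limit of detection. Actn3 had 121, 10 and 35 reads in 0%-Axitinib replicates 1, 2 and 3 and 3070, 53 and 3569 reads in 3%-Axitinib replicates 1, 2 and 3. Of the 10 genes, Actn3 and Myom1 had the most reads in 3%-Axitinib replicate 2, with 53 and 65. The log2 fold changes of Actn2 and Actn3 were 7.51 and 5.95, with standard errors of 2.09 and 1.56. For both actinins, 3%-Axitinib replicate 2 lay within the range of the 0%-Axitinib samples.

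Tcap encodes telethonin, which caps the ends of titin at the Z-disc. It was at 1.67, 0.583 and 0.272 CPM in 0%-Axitinib replicates 1, 2 and 3. In 3%-Axitinib replicates 1 and 3 it was at 399.7 and 249 CPM, and in replicate 2 it had 0 reads (a count of 3 is 0.273 CPM there). Replicate 2 was therefore the only sample without a read of Tcap, but its limit of detection does not set it apart from 0%-Axitinib replicate 3, which had 5 reads. The log2 fold change of 7.98, with a standard error of 2.23, had an adjusted p of 0.117 in edgeR's quasi-likelihood test (Benjamini-Hochberg adjustment). This fold change was the largest of the set in that fit of all samples. With limma-voom it was 4.81, below the 6.53 of Acta1. Without 0%-Axitinib replicate 1 it was 8.96 in edgeR's fit, below the 13.39 of Acta1.

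Ttn encodes titin, the molecular spring and ruler of the sarcomere. Its levels were 9.24, 0.583 and 2.01 CPM in 0%-Axitinib replicates 1, 2 and 3, and 648, 0.820 and 299 CPM in 3%-Axitinib replicates 1, 2 and 3. The level in 3%-Axitinib replicate 2 lay between those of 0%-Axitinib replicates 2 and 3. The log2 fold change of 6.32, with a standard error of 2.04, had an adjusted p of 0.141 in edgeR's quasi-likelihood test (Benjamini-Hochberg adjustment). Without 0%-Axitinib replicate 3 the unadjusted p was just above 0.05 in edgeR's test, which missed the criterion, with a log2 fold change of 5.99.

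Myom1 and Myom2 encode myomesins, which bridge thick filaments at the M-band. Myom1 was at 5.43, 3.85 and 11.4 CPM in 0%-Axitinib replicates 1, 2 and 3, and at 106, 5.92 and 72.7 CPM in 3%-Axitinib replicates 1, 2 and 3. It had at least 65 reads in every sample, and its log2 fold change, 3.15 with a standard error of 0.96, was the smallest of the set. The adjusted p of Myom1 was 0.133 in edgeR's quasi-likelihood test (Benjamini-Hochberg adjustment). Myom2 was at 2.04, 0.467 and 0.0543 CPM in 0%-Axitinib replicates 1, 2 and 3, and at 107, 0.638 and 69.1 CPM in 3%-Axitinib replicates 1, 2 and 3. In 0%-Axitinib replicate 3, Myom1 had its highest level of that group with 210 reads, and Myom2 had 1 read. The log2 fold change of Myom2 was 6.08 (standard error 1.74).

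Mybpc1 and Mybpc2 encode the slow and fast skeletal forms of myosin-binding protein C, an accessory protein of the thick filament. Mybpc1 had 47, 1 and 4 reads in 0%-Axitinib replicates 1, 2 and 3 and 2729, 1 and 2097 reads in 3%-Axitinib replicates 1, 2 and 3. Mybpc2 had 87, 1 and 7 reads in 0%-Axitinib replicates 1, 2 and 3 and 3176, 1 and 3970 reads in 3%-Axitinib replicates 1, 2 and 3. Each had 1 read in 3%-Axitinib replicate 2 and 1 read in 0%-Axitinib replicate 2, which is under the limit of detection. The log2 fold changes were 7.23 for Mybpc1 (standard error 2.20) and 6.84 for Mybpc2 (standard error 2.28). Without 0%-Axitinib replicate 2, the unadjusted p of Mybpc2 in edgeR's test was 0.0509, which missed the criterion, with a log2 fold change of 6.28.

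Single samples moved the fits. Without 3%-Axitinib replicate 2, 2 of the 10 genes, Neb and Tcap, passed an adjusted p of 0.05 in edgeR's test, against 0.364% of all tested genes, and the median log2 fold change of the set was 7.18. Without 0%-Axitinib replicate 3, 0 of the 10 genes passed, although 1252 genes did, 7.98% of all tested genes. Without 0%-Axitinib replicate 1, the median was 8.03, and the log2 fold change was 9.88 for Mybpc1, 9.70 for Mybpc2 and 7.91 for Ttn. In that fit it was 7.80 for Myom2, 7.18 for Actn3 and 8.96 for Tcap, while that of Myom1 was lower, at 3.00. Without 3%-Axitinib replicate 1, the median was 5.74, and each gene had its smallest log2 fold change of the 6 fits that left out a sample, from 2.53 for Myom1 to 7.19 for Tcap.

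All 10 genes were higher in 3%-Axitinib replicate 1 than in replicate 3, by unequal amounts. The ratio of their CPM was 2.47 for Mybpc1, 2.17 for Ttn and 2.12 for Acta1. It was 1.45 for Myom1, 1.52 for Mybpc2, 1.55 for Myom2 and 1.61 for Tcap. Neb, Actn2 and Actn3 lay between, at 1.90, 1.98 and 1.63.

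Within a sample, the makeup of the reads on the 10 genes was compared by shares with exact Clopper-Pearson 95% intervals, which cover counting error only. Acta1 took 58.1% (57.7 to 58.5) of 61381 reads in 3%-Axitinib replicate 1 and 54.5% (54.1 to 54.9) of 58671 reads in replicate 3. In 0%-Axitinib replicate 1, where the set had 1357 reads, its share was 49.5% (46.8 to 52.2). In the other 3 samples Acta1 was a small part of the set, with 3.91% of 128 reads, 0.291% of 344 reads and 0.633% of 158 reads in 0%-Axitinib replicates 2 and 3 and 3%-Axitinib replicate 2. Myom1 took the largest share there, with 51.6% (42.6 to 60.5), 61.0% (55.7 to 66.2) and 41.1% (33.4 to 49.2). In 3%-Axitinib replicates 1 and 3, Myom1 took 1.56% and 2.14%. Actn3 took 33.5% (26.2 to 41.5) in 3%-Axitinib replicate 2, above its share in the other 5 samples, which was at most 10.2%.

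**Figure D2:**
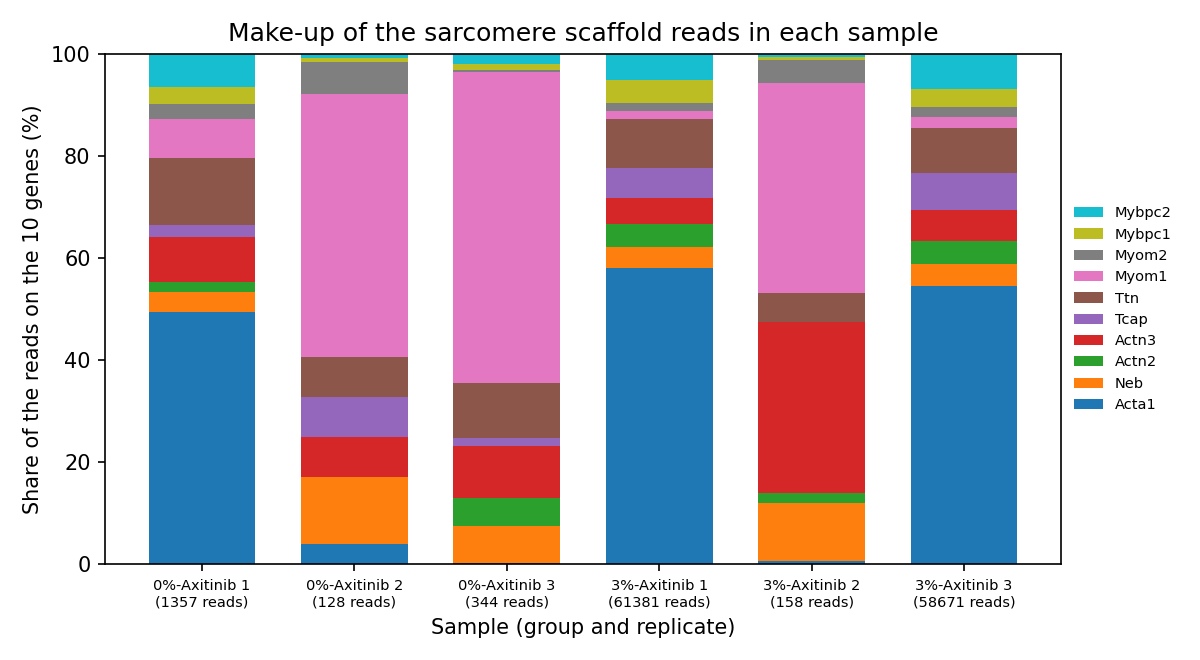
Share of each gene in the reads on the 10 genes, as stacked bars in percent for each sample, with the number of those reads under the sample name. Acta1 makes up 58.1% and 54.5% in 3%-Axitinib replicates 1 and 3 and 49.5% in 0%-Axitinib replicate 1, and Myom1 has the largest share in the other 3 samples.

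Pairs of related genes were set side by side in the same way. Of the reads on both actinins, Actn3 held 52.7% (51.4 to 53.9) and 57.5% (56.2 to 58.7) in 3%-Axitinib replicates 1 and 3, and 94.6% (85.1 to 98.9) of 56 reads in replicate 2. Actn3 held 81.8% (74.6 to 87.6) of 148 reads in 0%-Axitinib replicate 1 and 64.8% (50.6 to 77.3) of 54 reads in replicate 3. Its share was thus lowest in the pair of samples with the most reads. Of the reads on both myomesins, Myom1 held 49.7% and 51.3% in 3%-Axitinib replicates 1 and 3. In the other 4 samples Myom1 held between 72.7% and 99.5%. Mybpc2 held 53.8% (52.5 to 55.1) of the reads on both myosin-binding proteins in 3%-Axitinib replicate 1 and 65.4% (64.2 to 66.6) in replicate 3, so these samples differed by more than counting error. In 0%-Axitinib replicate 1 the share of Mybpc2 was 64.9% (56.2 to 73.0). Ttn held 70.1% and 67.4% of the reads on Ttn and Neb in 3%-Axitinib replicates 1 and 3, and 33.3% (16.5 to 54.0) of 27 reads in replicate 2. In 0%-Axitinib replicates 1, 2 and 3, Ttn held 77.6% (71.7 to 82.9), 37.0% (19.4 to 57.6) and 59.7% (46.4 to 71.9), a range that covers the values of 3%-Axitinib replicates 1 and 3.

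Levels of different genes were compared as CPM per kilobase of annotated exons. On this scale, the order in 3%-Axitinib replicate 1 was led by Acta1 with 2555, then Tcap with 422, Actn3 with 116, Mybpc2 with 96.7, Actn2 with 80.0 and Mybpc1 with 66.3. Myom2, Neb, Myom1 and Ttn followed with 12.1, 10.4, 10.1 and 5.54 CPM per kilobase. Ttn, whose exons span 116825 bases, was therefore second by reads and last by length-scaled level. Across the 10 genes, Spearman's rho of these levels was 0.988 between 3%-Axitinib replicates 1 and 3, and 0.891 and 0.927 between 0%-Axitinib replicate 1 and those samples. The rho of 3%-Axitinib replicate 2 with 3%-Axitinib replicates 1 and 3 was -0.103 and -0.067. Genes are not independent replicates, and most counts in replicate 2 were low.

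Positions are those of GENCODE for GRCm38. Acta1 lies on chromosome 8 from 123891769 to 123894751 and Myom2 on the same chromosome from 15057653 to 15133541. Ttn (76703980 to 76982547) and Neb (52136647 to 52378474) both lie on chromosome 2. Tcap lies on chromosome 11 from 98383811 to 98384953, Myom1 on chromosome 17 from 71002633 to 71126856, Mybpc1 on chromosome 10 from 88518279 to 88605152 and Mybpc2 on chromosome 7 from 44501699 to 44524656. Actn2 is on chromosome 13 and Actn3 on chromosome 19.

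Whether reads were counted by strand is not given in the sources used here, and reads that fell on more than 1 gene stood on a line of their own, with between 3.55% and 5.74% of the reads in the table. Myom1 shares 207 exon bases with Myl12a on the other strand, and lies 425 bases from Myl12b. Myl12a was at 227, 202 and 258 CPM in 0%-Axitinib samples and 306, 326 and 266 CPM in the 3%-Axitinib samples. Myl12b had its highest level, 383 CPM, in 0%-Axitinib replicate 3, which was also the highest 0%-Axitinib sample of Myom1. Actn3 has Ctsf 298 bases away and Zdhhc24 759 bases away. Ctsf was at 120, 165 and 169 CPM in 3%-Axitinib replicates 1, 2 and 3, and between 52.2 and 78.8 CPM in the 0%-Axitinib samples. Zdhhc24 was at 24.8 CPM in 3%-Axitinib replicate 2 and between 19.6 and 34.6 CPM over all samples. Whether reads of these neighbors entered the low counts of Myom1 and Actn3 was not tested. Near Mybpc2, Spib was at 30.0 CPM in 0%-Axitinib replicate 3, where Mybpc2 was at 0.380 CPM, and Fam71e1 was between 1.28 and 4.28 CPM in all samples. Near Acta1 and Tcap, Nup133 was between 23.6 and 29.2 CPM, Stard3 between 51.5 and 91.5 CPM and Pgap3 between 5.79 and 9.90 CPM.

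Promoter sequence from RefSeq (GRCm38.p6) was found for 6 of the 10 genes: Ttn, Mybpc2, Acta1, Mybpc1, Actn2 and Myom1. The 250 bases upstream of each start were searched on both strands for the CArG box and the MEF2 site, which are bound by serum response factor and MEF2 proteins, and for CAGCTG, the core that myogenic factors can bind. CATTCC, a letter string bound by TEAD proteins, and the TATA box letters TATAAA were searched likewise. A CArG box was found for Acta1 and Myom1 (1.47% of 32851 promoters hold one), and a MEF2 site for Ttn (2.92%). CAGCTG was found for Acta1 and Mybpc1 (13.0%), CATTCC for Acta1 and Mybpc2 (12.6%) and TATAAA for Acta1 (12.4%). A match of letters is a description and shows no binding. The promoter of Actn2 held no match to any of these motifs. Whether the matches bear on the levels of the 10 genes was not tested. Parts of the 3 promoters with a CArG box or a MEF2 site are printed with the matches in capitals, 5′ to 3′ on the strand of the gene. Acta1 is at chr8:123894776-123894885 (minus strand), Ttn at chr2:76982548-76982727 (minus strand) and Myom1 at chr17:71019417-71019556 (plus strand, inside the span that GENCODE gives the gene).
Acta1: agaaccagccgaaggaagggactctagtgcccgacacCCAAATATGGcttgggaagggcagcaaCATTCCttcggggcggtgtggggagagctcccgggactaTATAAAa
Ttn: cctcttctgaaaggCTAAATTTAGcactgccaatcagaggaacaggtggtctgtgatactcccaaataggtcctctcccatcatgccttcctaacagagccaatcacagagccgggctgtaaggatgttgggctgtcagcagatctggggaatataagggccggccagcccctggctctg
Myom1: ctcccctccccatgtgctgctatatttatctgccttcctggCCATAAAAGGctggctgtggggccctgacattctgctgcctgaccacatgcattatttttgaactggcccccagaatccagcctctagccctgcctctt

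Among genes outside the set, likeness was measured as Pearson's r of log2 CPM with the mean of the standardized 10 genes over the 6 samples, as a description. Among the 10 most alike were Mypn (r = 0.997), Myot, Tnni2, Myl1, Mylpf, Pygm, Cacna1s, Cap2 and Zcchc3 (r = 0.992). Pygm, muscle glycogen phosphorylase, was at 493, 2.92 and 351 CPM in the 3%-Axitinib samples, and Cacna1s, the calcium channel of the muscle surface, at 52.3, 0 and 30.6 CPM. The measure reads shape and not size, and Zcchc3 lay between 5.74 and 7.48 CPM in all samples. The r of the 10 genes themselves with their mean was lowest for Myom1, at 0.950.

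The partners of the set were described by lists of genes, whose counts stand beside 9.54% higher and 11.7% lower among all tested genes. Of 13 tested thin filament regulators and assembly genes, 9 were higher by the criterion and 0 lower, and the median log2 fold change was 2.35. Tnnt3, fast troponin T, was the most abundant, at 1705, 7.38 and 821 CPM in 3%-Axitinib replicates 1, 2 and 3, while its 0%-Axitinib samples reached at most 13.3 CPM. Tnnt3 and Tnni2, fast troponin I, had the largest log2 fold changes, 7.35 and 6.77, and Tpm3 and Tmod1 the smallest, -0.33 and 0.11. Of 10 tested thick filament motors and assembly genes, 8 were higher and 0 lower, with a median of 5.55. Myh4, the fast myosin heavy chain of type IIb fibers, was the most abundant, at 2088, 0 and 2188 CPM in 3%-Axitinib replicates 1, 2 and 3, against 38.8, 0.233 and 0 CPM in the 0%-Axitinib samples. Its unadjusted p missed the criterion, as that of Acta1 did, and the largest log2 fold changes were those of Myh1 and Myh2, 8.19 and 7.38. The smallest were 0.78 for Unc45b and 4.11 for Myl3.

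Of 20 tested Z-disc and titin partners, 14 were higher and 0 lower, and the median log2 fold change was 3.82. Des (desmin), the most abundant, had 1319, 21.7 and 607 CPM in 3%-Axitinib replicates 1, 2 and 3 and at most 29.3 CPM in the 0%-Axitinib samples. Myot and Mypn had the largest log2 fold changes, 7.80 and 6.99, and Ankrd23 and Bag3 the smallest, 0.45 and 0.59. Of 8 tested M-band and titin kinase partners, 6 were higher, with a median of 4.14. Trim63, a ubiquitin ligase that binds titin, had 504, 2.55 and 260 CPM in 3%-Axitinib replicates 1, 2 and 3, and a log2 fold change of 9.18, followed by Ckm with 7.69. Sqstm1, which many cell types express, was the most abundant and had a log2 fold change of 0.61, and Nbr1 had -0.17.

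Isoforms of fast and slow fibers were counted apart, and the difference between them was not tested. Of 9 tested fast isoforms 8 were higher, with a median log2 fold change of 6.77, and their summed CPM was 9950, 13.9 and 6079 in 3%-Axitinib replicates 1, 2 and 3, against 108, 6.01 and 9.94 in the 0%-Axitinib samples. Of 6 tested slow isoforms 4 were higher, with a median of 2.49 and sums of 399.0, 169 and 206 CPM. The slow sums of the 0%-Axitinib samples were 194, 224 and 157 CPM, a range that holds those of 3%-Axitinib replicates 2 and 3. The slow isoforms Myoz2 and Myh7 were too low in most samples to be tested, and had 79.2 and 10.9 CPM in 3%-Axitinib replicate 1. Atp2a2, which nonmuscle cells also express, was the most abundant slow isoform, at 183, 160 and 166 CPM in 3%-Axitinib replicates 1, 2 and 3, against 190, 221 and 135 CPM in the 0%-Axitinib samples. It made up most of each slow sum but that of 3%-Axitinib replicate 1. Without Atp2a2 the slow isoforms summed to 4.70, 2.39 and 21.6 CPM in 0%-Axitinib replicates 1, 2 and 3 and 216, 9.38 and 39.8 CPM in 3%-Axitinib replicates 1, 2 and 3, so 3%-Axitinib replicates 1 and 3 lay above every 0%-Axitinib sample and replicate 2 lay among them.

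Of 11 tested paralogs, 2 were higher by the criterion, Myom3, which is also an M-band protein of skeletal muscle, and Actc1, cardiac actin, with log2 fold changes of 3.50 and 3.40, and the median was 0.17. Myom3 was at 17.8, 0.729 and 4.17 CPM and Actc1 at 14.5, 1.18 and 1.22 CPM in 3%-Axitinib replicates 1, 2 and 3. The log2 fold changes of Mybph, Acta2, Nebl and Actg2 were 2.03, 0.53, 0.29 and 0.17. Those of Actn4, Actg1, Actn1, Mybpc3 and Actb were 0.14, 0.02, -0.30, -0.40 and -0.45. Mybphl was at or under the limit of detection in every sample. The nonmuscle actins and actinins summed to 4495, 5636 and 5793 CPM in 3%-Axitinib samples and 4722, 5373 and 9408 CPM in the 0%-Axitinib samples.

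The label of subcutaneous tissue was set beside markers of other cells. Fibroblast markers, led by Col1a1, summed to 26610, 13205 and 10324 CPM in 0%-Axitinib samples and 23181, 71060 and 25746 CPM in the 3%-Axitinib samples. The sum was highest in 3%-Axitinib replicate 2, the sample of that group with few reads on the sarcomere genes, and 4 of the 8 markers (Col1a1, Col1a2, Col3a1 and Lum) were highest there. Dcn, Dpt, Pdgfra and Fbln1 were not, and Dpt was at 607, 253 and 605 CPM in 3%-Axitinib replicates 1, 2 and 3. By the criterion, 2 of 8 were higher. The sum of the cartilage markers, led by Comp on average, was also highest there, with 1236 CPM against 309 and 475 CPM in replicates 1 and 3. It was 359, 213 and 166 CPM in the 0%-Axitinib samples, so 3%-Axitinib replicate 1 lay within their range. Without Comp the sums were 87.0, 85.9 and 112 CPM in 0%-Axitinib replicates 1, 2 and 3. They were 145, 801 and 344 CPM in 3%-Axitinib replicates 1, 2 and 3, each above every 0%-Axitinib sample. By the criterion, 5 of 7 tested cartilage markers were higher. Whether rabbit reads entered the fibroblast and cartilage sums was not tested. Endothelial markers, led by Pecam1, were all lower by the criterion (8 of 8, against 11.7% of all tested genes), with sums of 726, 466 and 830 CPM in 0%-Axitinib samples and 155, 236 and 286 CPM in the 3%-Axitinib samples. Adipocyte markers, led by Fabp4, summed to 826, 473 and 693 CPM in 3%-Axitinib samples and 923, 941 and 1076 CPM in the 0%-Axitinib samples, and 2 of 8 were lower, Lep and Fabp4, with log2 fold changes of -5.58 and -1.22. Fabp4 and Pnpla2 made up most of these sums. Fabp4 was at 246, 285 and 252 CPM in 3%-Axitinib replicates 1, 2 and 3, highest in replicate 2, and Pnpla2 was at 162 CPM in replicate 2, within the range of the 0%-Axitinib samples. Adipoq, the adiponectin gene, was at 16.1, 0.456 and 2.95 CPM in 3%-Axitinib replicates 1, 2 and 3, and Cfd, the adipsin gene, at 109.5, 3.37 and 26.7 CPM. Plin1 and Cidec were likewise lowest in 3%-Axitinib replicate 2, at 0.182 and 0.547 CPM, against at least 7.88 and 13.7 CPM in the 0%-Axitinib samples. Leukocyte markers, led by Lyz2, summed to between 6723 and 14566 CPM, and 3 of 8 were lower (Ptprc, Cd3e and Cd79a). Cd79a and Cd3e were at 101 and 23.3 CPM in 0%-Axitinib replicate 3 and at most 2.33 and 2.10 CPM in the other samples. Ptprc was at least 215 CPM in the 0%-Axitinib samples and at most 98.1 CPM in the 3%-Axitinib samples. Smooth muscle markers, led by Acta2, summed to between 154 and 465 CPM, and 0 of 8 met the criterion. Keratinocyte markers, led by Krt1, reached 870.1 CPM in 0%-Axitinib replicate 2 and at most 10.3 CPM in the other samples, so keratinocyte transcripts were measured mainly in that sample.

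Cardiac muscle markers, led by Myl4, summed to 101, 16.5 and 23.9 CPM in 3%-Axitinib replicates 1, 2 and 3 and to between 9.56 and 23.2 CPM in the 0%-Axitinib samples. Of 6 tested markers, 3 were higher by the criterion, against 9.54% of all tested genes. These were Actc1, Tnnt2 and Myh6, with log2 fold changes of 3.40, 3.26 and 1.74. Myl4, Tnni3 and Mybpc3 did not meet it, with 2.79, 0.57 and -0.40, and the median of the 6 was 2.27. Tnnt2 was at 22.4, 0.729 and 1.51 CPM in 3%-Axitinib replicates 1, 2 and 3. Its levels in replicates 2 and 3 lay within the range of the 0%-Axitinib samples (0.313 to 1.58 CPM). Myl7 had 0 reads in every sample, and Nppa, Nppb and Ryr2 were at most 0.543 CPM. Of the markers of myogenic and regenerating muscle, 10 of 12 were in the table under these names, and 2 were tested, of which 0 met the criterion. Ncam1, which nerve also expresses, was the most abundant, and Myh3, embryonic myosin, was at 12.1, 0.456 and 1.39 CPM in 3%-Axitinib replicates 1, 2 and 3. Myog and Pax7 were at 0 in all 0%-Axitinib samples and in 3%-Axitinib replicate 2, and Myog was at 15.9 and 1.79 CPM in 3%-Axitinib replicates 1 and 3. The part that any of these cell types had in the levels of the 10 sarcomere genes was not tested.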

How the data were processed

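The authors filtered the reads, mapped them with STAR 2.5.2b (GRCm38, mm10) and deposited raw counts per gene. Between 19.1% and 57.8% of the reads in the table stood on 4 lines that name no gene, which were left out. Analysis used edgeR 4.0.16 (R 4.3.3): filterByExpr (minimum count 10, minimum total 15), TMM, the quasi-likelihood test, and Benjamini-Hochberg adjustment over 15257 genes. Library sizes were summed over the tested genes, a choice made after a fit with all genes had been seen. Alternatives covered DESeq2 1.42.0, limma 3.58.1 (voom), scaling, filters, the replicate number and each sample left out. A fit without both 0%-Axitinib replicate 1 and 3%-Axitinib replicate 2 gave more adjusted calls and was dropped, because that pair had been picked by its muscle reads. The genes named were the 10 genes, their paralogs, neighbors within 5000 bases with at least 1 CPM on average, the 10 genes most alike (1 of which is not reported here), of each list the most abundant gene, and of the lists of sarcomere partners the 2 with the largest increase and decrease. Markers of other cells are given mainly by sums, and other genes were named after their values were seen. The members and lists were chosen with earlier results of these data known. Log2 CPM used a prior count of 2. Standard errors are the absolute log2 fold change divided by the square root of the F statistic of the quasi-likelihood test. P-values measure only the spread between these samples. Depth ranged from 9225518 to 18403795 counts.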

Additional observations from a re-analysis of the deposited data

Results flagged for a closer look

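Unmapped reads, which entered no comparison, were 48.4%, 29.2% and 16.8% of the table in 3%-Axitinib replicates 1, 2 and 3, each above the highest 0%-Axitinib sample (14.9%). The source of these reads was not analysed here. The 10 sarcomere genes summed to 6751, 14.4 and 3397 CPM in these samples, so replicate 2 had a larger unmapped share than replicate 3 and a far lower sum. The part of the unmapped reads in those levels was not tested. Groups of 3 samples were not searched for single outlying values.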

How the results depend on the processing

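Over the alternatives, each of the 10 genes kept a positive log2 fold change. In fits of single genes, 134 values stayed on the same side of an unadjusted p of 0.05, 12 missed it where they had met it, 9 of these with limma-voom, and 4, all of Acta1, met it. The number of genes higher by the study's criterion was 0 with limma-voom and between 8 and 10 with each sample left out, where between 6.65% and 14.5% of all tested genes met it. The number with an adjusted p of at most 0.05 was 9 with DESeq2's Wald test, and between 0 and 2 with each sample left out, reaching 2 without 3%-Axitinib replicate 2 (0.364% of all tested genes) and 0 without 0%-Axitinib replicate 3 (7.98%). The median log2 fold change of the set was between 5.74 and 8.03 with each sample left out and 5.23 with limma-voom, where that of Tcap went from 7.98 to 4.81. With total counts in place of TMM, the median of all tested genes moved from -0.034 to -0.16 and the higher genes from 44.9% to 28.8% of those that met the criterion, and the median of the set was 6.48. Library sizes over all genes, the definition used in the first fit and replaced after its values had been seen, were added as an alternative after seeing the data and gave 9, 0 and 6.61 for these results. TMM factors offset such a change of library size, so this alternative could show little, and its values are among the 134. With the replicate number as a replicate block, 8 genes met the criterion (8.19% of all tested genes), 1 gene (Actn2) passed an adjusted p of 0.05 (0.0298 in edgeR's test, which 2 of all tested genes passed) and the median was 6.18. The deviations of samples with the same number correlated at 0.182, -0.115 and -0.174, so the numbers were not taken to pair the samples. The cause of these changes was not tested. Depth limits the low samples: Acta1, Mybpc1 and Mybpc2 had 1 read in 3%-Axitinib replicate 2.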

Other observations

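The filter on low counts left out some muscle genes that were high in 3%-Axitinib replicates 1 and 3 and at or near 0 elsewhere, which were picked after their values were seen. Lmod2, a thin filament nucleator, was at 155, 0 and 72.4 CPM in 3%-Axitinib replicates 1, 2 and 3, and at most 0.261 CPM in the 0%-Axitinib samples. Myoz2, a Z-disc protein of slow fibers, was at 79.2, 0 and 17.0 CPM. Tnnc2, fast troponin C, was at most 0.220 CPM in every sample, while its partners Tnnt3 and Tnni2 reached 1705 and 1030 CPM. The reads were not analysed here, so whether the line of Tnnc2 holds all reads of this gene was not tested, and its value is given as a count on that line only.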
